A study of Mus musculus with 8 samples.

Results

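Muscle cells choose exons with a small set of RNA-binding proteins, and 10 genes of that set are described here in regenerating mouse muscle: Mbnl1, Mbnl2, Mbnl3, Celf1, Celf2, Rbfox2, Rbm24, Ptbp1, Ptbp2 and Qk. They were taken by name from the authors' table of the comparison between Psat1iKO and Ctrl, in which they have 49 of 36743 rows and are 10 of 16573 gene symbols. The genes were picked with the fold changes of this same comparison in view, so their fold changes and p-values are entries of the authors' deposited table given as a description, and they support no test of the set. A row is finer than a gene, and names such as Mbnl3 and Mbnl3.1 are different rows of 1 gene that the table does not tie to a named transcript.

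The series holds 8 poly(A) RNA libraries from tibialis anterior with extensor digitorum longus, a pair of lower hindlimb muscles, taken 3 days after injury with notexin at 2 mg/mL. In 4 libraries the mice were Psat1iKO, and in 4 they were Ctrl. The suffix iKO is spelled as in the labels, and the Cre driver, the way deletion was induced, the age and sex of the mice and the genotype of Ctrl are not stated in the labels. The labels name sorted muscle stem cells as the cell type while the design text names the muscles. Whether the RNA came from sorted cells or whole muscle is therefore not settled by these texts, and levels of cell type markers are given below. No label ties a library to its own mouse, so the p-values rest on a spread between libraries that could be technical.

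MBNL proteins bind GC flanked by pyrimidines and drive the switch from fetal to adult exons in muscle, and their sequestration by expanded repeat RNA underlies the splicing defects of myotonic dystrophy. CELF proteins bind GU-rich RNA and often act on the same exons in the opposite direction. RBFOX proteins bind UGCAUG, PTB proteins bind pyrimidine tracts and mostly repress exons, and QK and RBM24 favour muscle exons. Most of these genes are themselves alternatively spliced, and several set their own or each other's isoforms.

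The exons below are shown because such alternative exons make the transcripts of 1 regulator differ. They come from GENCODE M21 on GRCm38, the mm10 genome that the submitters' processing notes name, and are written 5′ to 3′ on the strand of the gene. A 36-base coding exon is found in all 3 MBNL genes, and capitals mark the 13 positions at which the 3 copies are not all alike.
Mbnl1 (chr3:60621423-60621458, plus strand): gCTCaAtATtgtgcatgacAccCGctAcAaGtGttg
Mbnl2 (chr14:120403336-120403371, plus strand): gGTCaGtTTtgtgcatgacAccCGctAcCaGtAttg
Mbnl3 (chrX:51126126-51126161, minus strand): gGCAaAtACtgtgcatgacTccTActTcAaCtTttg

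The Mbnl3 copy of this exon has the same base as Mbnl1 at 26 of 36 positions (72.2%) and as Mbnl2 at 24 (66.7%), while Mbnl1 and Mbnl2 share 31 (86.1%). The exon is in 7 annotated transcripts of Mbnl1 and absent from 5 that span it. For Mbnl2 these numbers are 2 and 5, and for Mbnl3 they are 2 and 3. A second alternative exon, of 54 bases, is known in Mbnl1 for its part in sending the protein to the nucleus, and MBNL proteins repress its inclusion. Capitals mark the 8 positions at which the Mbnl1 and Mbnl2 copies differ.
Mbnl1 (chr3:60614683-60614736, plus strand): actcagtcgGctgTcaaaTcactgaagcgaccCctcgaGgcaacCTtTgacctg
Mbnl2 (chr14:120395712-120395765, plus strand): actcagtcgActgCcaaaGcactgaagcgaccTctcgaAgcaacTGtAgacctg

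The 54-base copies share 46 bases (85.2%). The exon is in 5 annotated Mbnl1 transcripts and absent from 9 that span it, and in 3 Mbnl2 transcripts and absent from 3. In Ptbp2, PTBP1 causes skipping of a 34-base exon, which shifts the reading frame and sends the transcript to decay. It is in 3 annotated transcripts and absent from 3 that span it, and no base is capitalised.
Ptbp2 (chr3:119724612-119724645, minus strand): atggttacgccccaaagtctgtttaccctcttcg

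Which rows carry these exons cannot be read from the table. If the number after the dot counts the entries of a gene, Mbnl3 had at least 12 entries, against 7 transcripts in GENCODE M21 and 15 in RefSeq, and Rbfox2 had at least 21, against 15 and 54. The suffix counted more entries than GENCODE transcripts for 2 of the 10 genes and more than RefSeq transcripts for 0 of them.

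The targeted gene was lower in Psat1iKO: the row Psat1.1 had a fitted mean of 14362 normalized counts in Psat1iKO and 20204 in Ctrl, with a log2 fold change of -0.49 ± 0.0675 (SE) by the authors' deposited table. The minor row Psat1, with 0.441% of the gene's mean count, stood at 0.68 ± 0.514 in the authors' deposited table. The 2 rows summed to 14456 in Psat1iKO and 20262 in Ctrl, a fold of 0.713, so the fall in counts was partial. A fitted mean is the group mean that follows from the authors' mean over all 8 libraries and their fold change. No value per library was analysed here, so the depth of each library is unknown and the error of a row is the authors' SE. All 10 muscle stem cell and myoblast markers had rows, with leading rows (the row of highest mean in each gene) between 972 and 47464 mean normalized counts, not divided by transcript length. The median was 11264 for these markers and 3168 for differentiating myocyte markers. It was 651 for pericyte and smooth muscle, 170 for adult myofibre, 119 for macrophage, 83.0 for fibro-adipogenic and 18.7 for endothelial markers. The RNA was thus rich in myoblast markers beside the other lists, and its source was not tested. Of the 10 myoblast markers, Myod1, the myogenic determination factor, was called higher, at 0.16 ± 0.0386 with a DESeq2 adjusted p of 0.0058 by the authors' deposited table. The 5 differentiating myocyte markers summed to 20340 fitted counts in Psat1iKO and 23115 in Ctrl, with 4 of 5 below 0 and 0 called. The 5 adult myofibre markers had means from 6.02 to 5463, with a median of 170. They summed to 6034 in Psat1iKO and 7144 in Ctrl, with 3 above 0 and 2 below. The 4 fibro-adipogenic markers, with means from 58.0 to 723, summed to 919 in Psat1iKO and 975 in Ctrl, 2 on each side of 0. Tubb3, the 1 listed neuron marker with a row, had a mean of 2259, and the other listed neuron markers, Rbfox3 and Snap25, had no row. The 4 endothelial markers, with means from 5.20 to 28.8, summed to 49.5 in Psat1iKO and 93.5 in Ctrl, all 4 below 0. Cd3d had a mean of 10.3 and stood at 0.16 ± 0.697, and S100a9 had a mean of 4.28 and stood at -3.33 ± 2.33, by the authors' deposited table. Cd3e and S100a8, listed with them, had no row. The leading rows of the 4 macrophage markers that had a row, of 5 listed, summed to 443 fitted counts in Psat1iKO and 2260 in Ctrl, with all 4 under a log2 fold change of 0. Among these, Lyz2 had the highest mean, 1074, and stood at -2.63 ± 1.14 by the authors' deposited table. The leading rows of 5 pericyte and smooth muscle markers summed to 4100 in Psat1iKO and 3053 in Ctrl, with 4 of 5 above 0. By the authors' deposited table Rgs5.1 stood at 1.04 ± 0.352, and Cspg4, the 1 below 0, at -0.06 ± 0.260. No marker of these other cell types was called (DESeq2 adjusted p under 0.05, by the authors' deposited table), against 0.338% of all leading rows, and Csf1r had no row. The part of these cells and of the myocyte markers in the values below was not tested. Fewer cells of a type and less RNA per cell cannot be told apart.

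Of the 49 rows, 2 were called, and both belong to Mbnl3. That is 4.08%, against 0.656% of all rows (0.332% called higher and 0.324% called lower), and nothing is read from this ratio because the genes were picked with these calls known. At an unadjusted p under 0.05 there were 8 rows, 5 higher and 3 lower in Psat1iKO, or 16.3% against 6.04% of all rows (2.94% higher and 3.1% lower). By sign alone, 22 rows were above 0 and 27 below. The median log2 fold change was -0.04 over the member rows and 0.00 over all rows of the authors' deposited table.

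**Figure D1:**
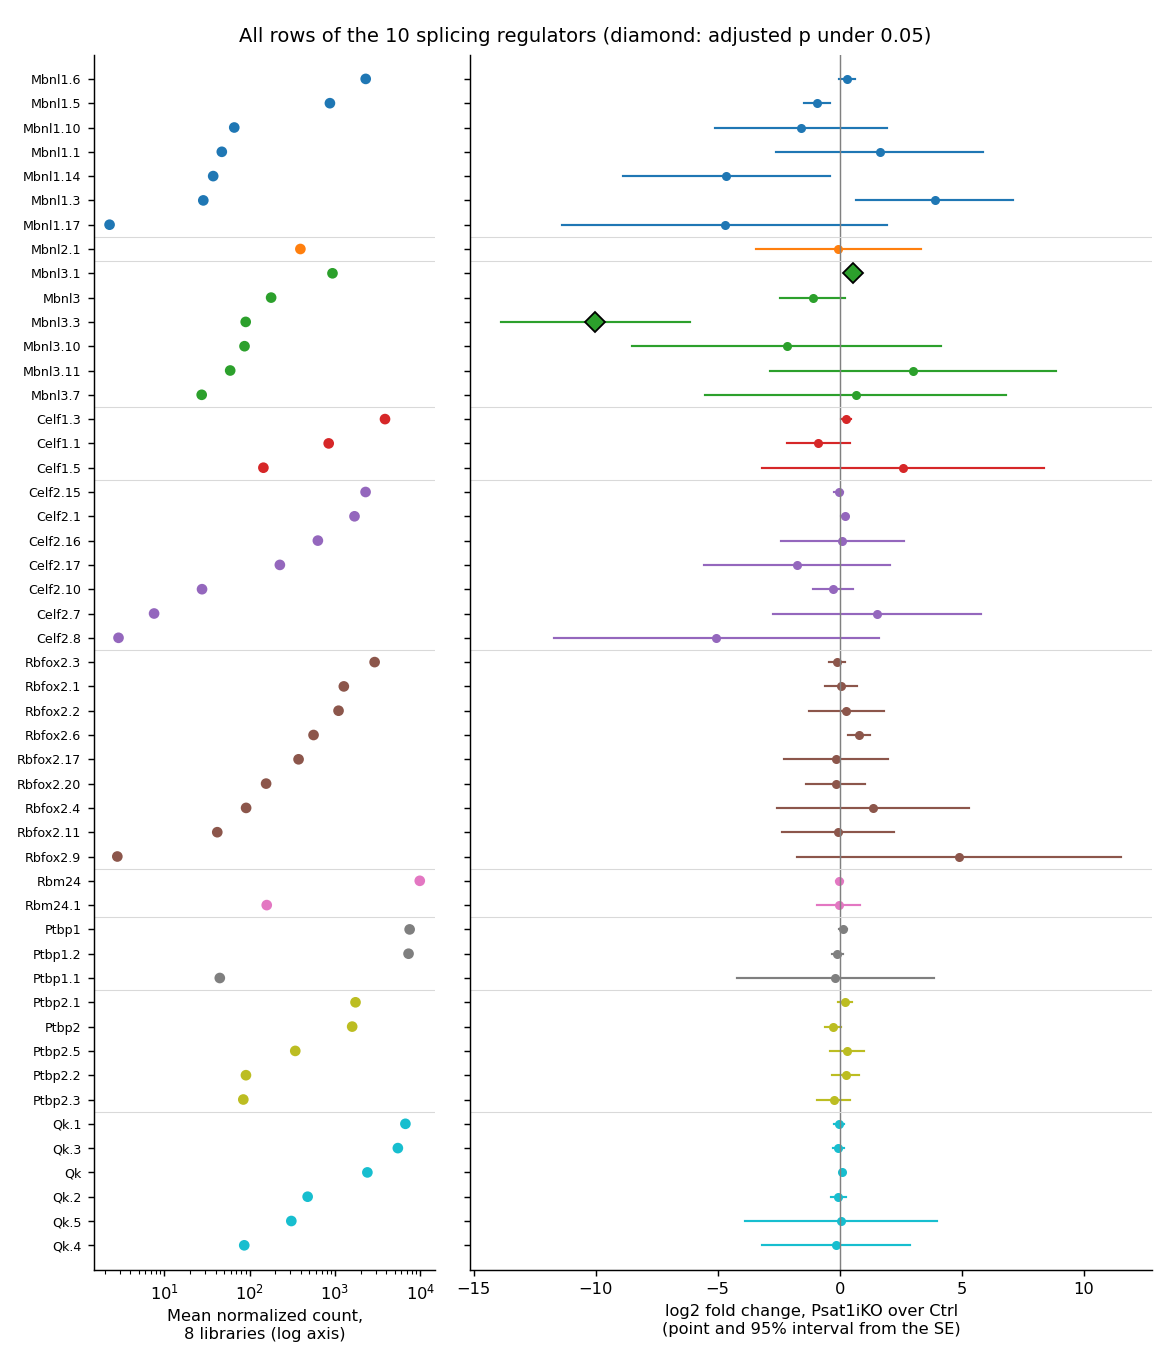
Every row of the 10 regulators, grouped by gene, with its mean normalized count over 8 libraries (left, log axis) and its log2 fold change of Psat1iKO over Ctrl with the 95% interval from the authors' SE (right). The 2 diamonds are the called rows, Mbnl3.1 at 0.56 and Mbnl3.3 at -10.02, and many rows of low mean have intervals several log2 units wide.

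For 9 of the 10 genes the point estimate of the summed rows was almost level between the groups, and for Mbnl2, with 1 row, the error was too large to say. Summed fitted means gave log2 changes from -0.06 in Mbnl2 to 0.12 in Celf1, and for 0 of the 10 genes did the total change 2-fold. The sums of the 9 genes with several rows carry no error and no test, since the covariance of the rows is unknown, and the sum of Mbnl2 is its only row, at -0.06 ± 1.73 in the authors' deposited table. The median total change was 0.00 over the 10 genes and -0.01 over 10583 genes with a summed mean of at least 100.

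**Figure D2:**
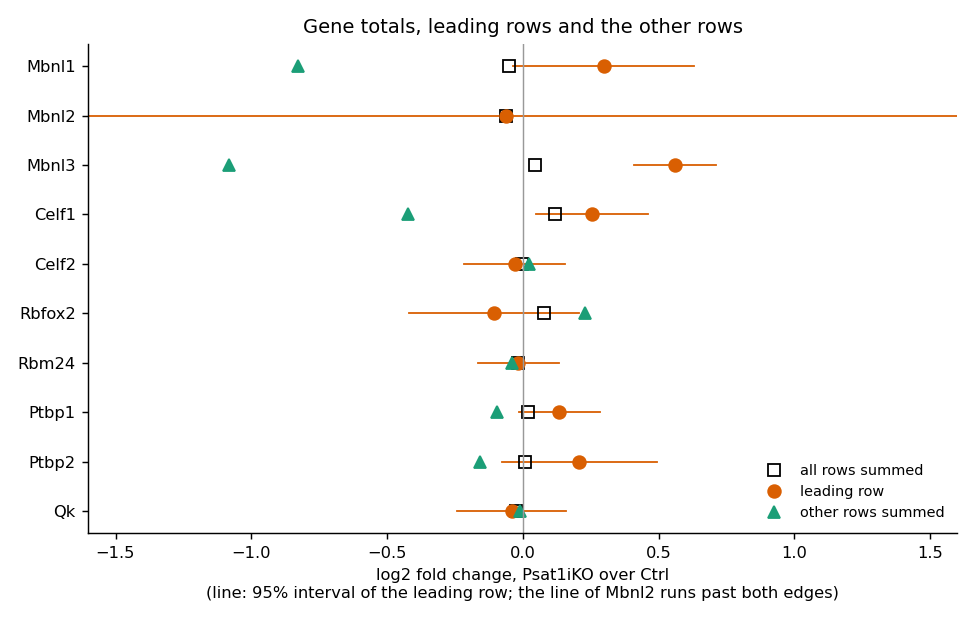
The log2 fold change of Psat1iKO over Ctrl for all rows summed (open squares), for the leading row alone (circles, with its 95% interval, which for Mbnl2 runs past both edges) and for the other rows summed (triangles), by gene. The squares lie between -0.06 and 0.12, while the circle and the triangle of Mbnl3 lie at 0.56 and -1.08.

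Mbnl3 showed opposite changes in different rows. MBNL3 is the family member found mainly in immature and regenerating muscle and in placenta, and in cultured mouse myoblasts it has been reported to restrain differentiation. The gene lies on the minus strand of chromosome X from 51117269 to 51206532, and 4 protein-coding transcripts in GENCODE M21 start at 4 different positions, from 51146415 to 51205990. Its leading row Mbnl3.1, with 67.9% of the gene's mean count, had a fitted mean of 1114 normalized counts in Psat1iKO and 756 in Ctrl. It rose by 0.56 ± 0.0769 on the log2 scale (a fold of 1.47, 95% interval of the log2 change 0.41 to 0.71), and the authors' deposited table gives 1.22e-09 as its DESeq2 adjusted p.

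The row Mbnl3.3 fell, and it holds 6.53% of the gene's mean count. Its fitted mean was 0.173 in Psat1iKO and 180 in Ctrl, and the authors' deposited table lists its log2 fold change as -10.02 ± 1.97 and its DESeq2 adjusted p as 0.000181. Of rows whose mean lay within 2-fold of this one, 89.4% had a smaller SE. In 1518 rows of the table the lower fitted group mean lies between 0.15 and 0.2, in Psat1iKO for 762 and in Ctrl for 756. Of these 1518 rows 103 were called, against 241 of all 36743 rows (0.656%). Rows with 1 group fitted at this level were thus called more often than rows at large, and they make up a large part of all calls. The 0.173 is thus a value at which many fits end and not a measured remainder, so -10.02 is read neither as the size of the fall nor as a bound. The row made up 13.3% of the gene's counts in the Ctrl fit.

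The other 4 rows of Mbnl3 were not called. The row named Mbnl3 stood at 113 in Psat1iKO and 244 in Ctrl, with -1.11 ± 0.679 for its log2 fold change in the authors' deposited table. By the authors' deposited table Mbnl3.10 stood at -2.18 ± 3.23, Mbnl3.11 at 3.00 ± 2.99 and Mbnl3.7 at 0.66 ± 3.15. Errors of that size span many log2 units on both sides of 0.

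Mbnl3.1 gained 358 fitted counts in Psat1iKO, and the other 5 rows together had 284 in Psat1iKO and 601 in Ctrl, 317 fewer. The total of the gene was 1398 in Psat1iKO and 1357 in Ctrl, a log2 change of 0.04, and 54.1% of the 10583 genes with a summed mean of at least 100 had a total change at least that large. Mbnl3.1 made up 79.7% of the gene's fitted counts in Psat1iKO and 55.7% in Ctrl. A share of counts is not a share of molecules, since the rows may differ in length. Mbnl3 is 1 of 8 genes with called rows in both directions, and the others are Etv6, Gabpb1, Pphln1, Secisbp2l, Tm6sf2, Tmem87a and Txndc16. These are 0.0483% of all genes, against 1.39% with any called row. That base includes 8442 genes with 1 row, which cannot be called in both directions. Only 9 genes had more than 1 called row, so calls in both directions were usual among such genes and not particular to Mbnl3.

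The share of a gene's counts that sat in different rows in the 2 groups, taken as the summed absolute difference of row shares divided by 2, was 31.4% for Mbnl3. The median was 3.82% over 6613 genes with more than 1 row and a summed mean of at least 100, and 1.78% of them had a share at least as large as Mbnl3. It was 19.5% for Mbnl1, 11.7% for Celf1, 8.42% for Ptbp2, 7.62% for Rbfox2 and 6.17% for Celf2. Ptbp1 had 3.96%, Qk 1.32% and Rbm24 0.0253%. This measure has no error and grows with noise in minor rows. At least as large a share was found in 6.82% of the 6613 genes for Mbnl1 and 17.2% for Celf1. For Ptbp2, Rbfox2 and Celf2 it was found in 26.2%, 29.5% and 35.7%, and for Ptbp1, Qk and Rbm24 in 49.1%, 75.8% and 99.2%. Nothing is read from the place of Mbnl3, because the genes were picked with these fold changes known.

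**Figure D3:**
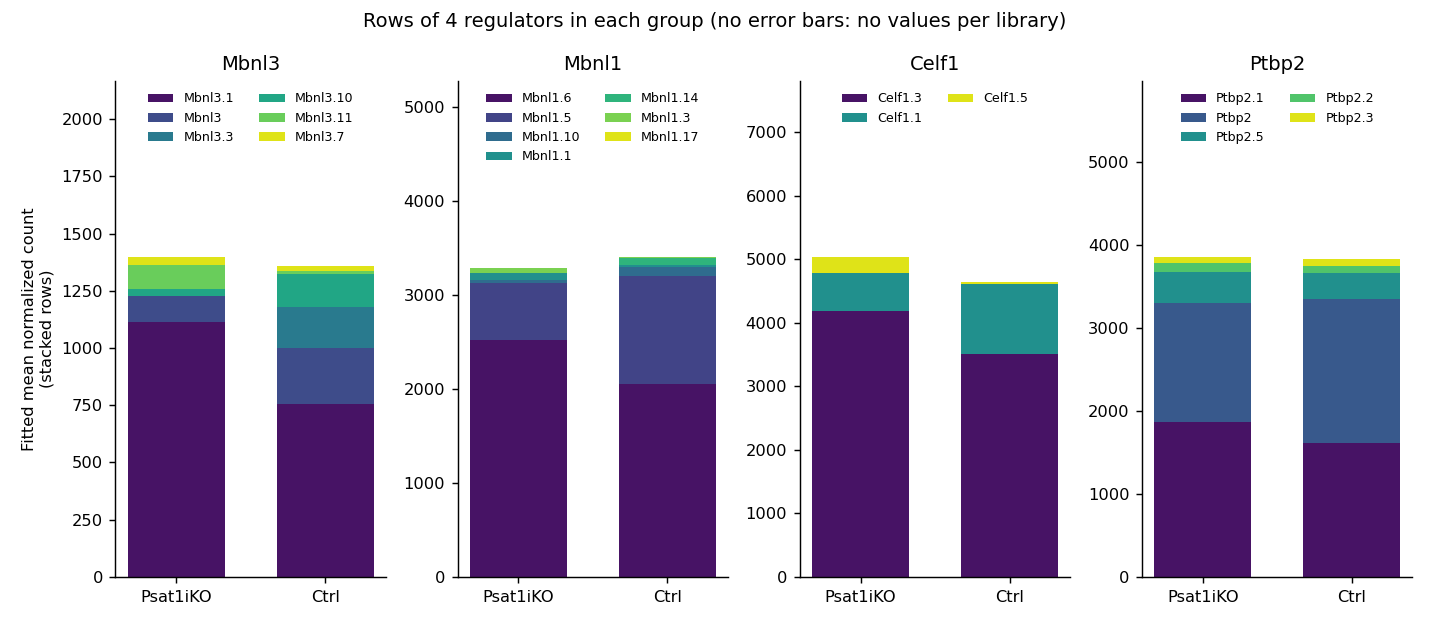
Fitted mean normalized counts of each row, stacked, in Psat1iKO (left bar) and Ctrl (right bar) for 4 regulators; there are no error bars because no values per library were analysed. The bars of a gene are of nearly equal height, 1398 in Psat1iKO and 1357 in Ctrl for Mbnl3, while Mbnl3.1 takes 79.7% of the Psat1iKO bar and 55.7% of the Ctrl bar.

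Mbnl1, the main MBNL protein of adult muscle, lies on the plus strand of chromosome 3 from 60472830 to 60629750 and has 7 rows, of which 0 were called and 3 had an unadjusted p under 0.05. The leading row Mbnl1.6 (68.5% of the mean count) had 2525 fitted counts in Psat1iKO and 2055 in Ctrl, and the authors' deposited table has 0.30 ± 0.171 as its log2 fold change. Mbnl1.5 (26.1%) had 599 in Psat1iKO and 1146 in Ctrl. Its log2 fold change was -0.94 ± 0.265, for which the authors' deposited table gives an unadjusted p of 0.000407 and 0.0582 after DESeq2's adjustment, just above the threshold of 0.05.

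The remaining rows of Mbnl1 hold under 2% of the gene each. Mbnl1.3 had 53.7 fitted counts in Psat1iKO and 3.62 in Ctrl, and the authors' deposited table lists 3.89 ± 1.64 on the log2 scale (unadjusted p 0.0177, DESeq2 adjusted p 0.541). Mbnl1.14 had 2.88 in Psat1iKO and 72.0 in Ctrl, and the authors' deposited table lists -4.64 ± 2.16 (unadjusted p 0.0316, DESeq2 adjusted p 0.687). Neither passed the adjusted threshold. Mbnl1.10, Mbnl1.1 and Mbnl1.17 had SEs from 1.80 to 3.40. The gene total was 3285 in Psat1iKO and 3403 in Ctrl, a log2 change of -0.05. Mbnl1.6 and Mbnl1.5 thus lay on opposite sides of 0 around a level total, as the rows of Mbnl3 did, but neither passed the adjusted threshold and the difference between them was not tested.

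Mbnl2, the paralogue best known for its splicing role in brain, lies on chromosome 14 from 120275669 to 120431697 and had 1 row. Mbnl2.1 had 385 fitted counts in Psat1iKO and 402 in Ctrl, and the authors' deposited table has -0.06 ± 1.73 as its log2 fold change. The 95% interval ran from -3.44 to 3.32, so a rise or a fall of Mbnl2 within that wide range could not be told from no change. Of rows whose mean lay within 2-fold of this one, 98.6% had a smaller SE, with a median of 0.240.

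CELF1, which competes with MBNL proteins on many muscle exons and also promotes decay of GU-rich messages, is encoded on chromosome 2 from 90940382 to 91019497. Celf1.3, with 79.6% of the mean count, had 4194 fitted counts in Psat1iKO and 3515 in Ctrl. Its log2 fold change was 0.25 ± 0.106, for which the authors' deposited table gives an unadjusted p of 0.0162 and 0.519 after DESeq2's adjustment. By the authors' deposited table Celf1.1 stood at -0.87 ± 0.658 and Celf1.5 at 2.59 ± 2.95. The total of 5039 in Psat1iKO against 4648 in Ctrl gave the log2 change of 0.12, the highest of the 10.

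Celf2, the second broadly expressed CELF gene, lies on chromosome 2 from 6539694 to 7509563 and had 7 rows. The leading row Celf2.15 had 2259 fitted counts in Psat1iKO and 2307 in Ctrl, with -0.03 ± 0.0945 for its log2 fold change in the authors' deposited table. Celf2.1, with 34.8% of the mean count, had 1813 in Psat1iKO and 1573 in Ctrl. It stood at 0.20 ± 0.0726, for which the authors' deposited table gives an unadjusted p of 0.00477 and 0.268 after DESeq2's adjustment. Celf2.16 and Celf2.17 hold 12.9% and 4.64% of the gene and had SEs of 1.28 and 1.94, and Celf2.10, Celf2.7 and Celf2.8 hold under 1% each. The total was 4866 in Psat1iKO and 4875 in Ctrl.

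RBFOX2 is the RBFOX protein of myoblasts, where it directs exons of Mef2d and Rock2 used in myoblast fusion. The gene lies on chromosome 15 from 77078990 to 77307004 and had 9 rows, the most of the 10. Rbfox2.3 (44.7%) had 2805 fitted counts in Psat1iKO and 3022 in Ctrl, and the authors' deposited table has -0.11 ± 0.159 as its log2 fold change. Rbfox2.6, with 8.62% of the mean count, had 709 in Psat1iKO and 413 in Ctrl. It stood at 0.78 ± 0.233, for which the authors' deposited table gives an unadjusted p of 0.000818 and 0.0911 after DESeq2's adjustment.

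The other 7 rows of Rbfox2 had unadjusted p-values above 0.05. The authors' deposited table puts Rbfox2.1 (19.5% of the mean count) at 0.05 ± 0.332 and Rbfox2.2 (16.9%) at 0.28 ± 0.791. Rbfox2.17, Rbfox2.20, Rbfox2.4, Rbfox2.11 and Rbfox2.9 hold under 6% each, with log2 fold changes between -0.17 and 4.89 in the authors' deposited table. The total was 6689 in Psat1iKO and 6333 in Ctrl, a log2 change of 0.08.

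RBM24, a protein enriched in heart and skeletal muscle that promotes muscle exons, was close to level. Rbm24 lies on chromosome 13 from 46418434 to 46431095, and 98.4% of its mean count is in 1 row, with 9788 fitted counts in Psat1iKO and 9900 in Ctrl. The log2 fold change was -0.02 ± 0.0760 in the authors' deposited table, with a 95% interval of -0.17 to 0.13, and 72.1% of rows within 2-fold of its mean had a smaller SE. The minor row Rbm24.1 stood at -0.04 ± 0.453 in the authors' deposited table.

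PTBP1 represses neuronal and muscle exons in proliferating cells, and PTBP2 is the paralogue that takes its place in developing neurons. Ptbp1, on chromosome 10 from 79854427 to 79864771, had its counts in 2 rows of nearly equal size. The row Ptbp1 had 7836 fitted counts in Psat1iKO and 7144 in Ctrl, with 0.13 ± 0.0760 for its log2 fold change in the authors' deposited table. Ptbp1.2 had 7034 in Psat1iKO and 7511 in Ctrl, at -0.09 ± 0.114 in the authors' deposited table. The third row, Ptbp1.1, holds 0.302% of the gene and stood at -0.19 ± 2.06 in the authors' deposited table. The gene total was 14912 in Psat1iKO and 14703 in Ctrl.

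Ptbp2, on chromosome 3 from 119718742 to 119784466, also had 2 main rows on opposite sides of 0. Ptbp2.1 had 1865 fitted counts in Psat1iKO and 1615 in Ctrl, and the row Ptbp2 had 1439 in Psat1iKO and 1740 in Ctrl. Their log2 fold changes were 0.21 ± 0.146 and -0.27 ± 0.162 in the authors' deposited table, with unadjusted p of 0.154 and 0.0897. Ptbp2.5, Ptbp2.2 and Ptbp2.3 lay between -0.24 and 0.30 in the authors' deposited table. The total was 3858 in Psat1iKO and 3837 in Ctrl, a log2 change of 0.01. Whether any of these rows lacks the 34-base exon cannot be told from the table.

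QK, a KH-domain protein of the STAR family whose isoforms differ in their C-terminal ends and in where they sit in the cell, is encoded by Qk on chromosome 17 from 10202601 to 10319854. Its 3 larger rows were close to level. Qk.1 had 6590 fitted counts in Psat1iKO and 6778 in Ctrl, with -0.04 ± 0.103 in the authors' deposited table. Qk.3 stood at -0.05 ± 0.115 in the authors' deposited table, and the row Qk at 0.09 ± 0.0449 with an unadjusted p of 0.0506. Qk.2, Qk.5 and Qk.4 lay between -0.15 and 0.06 in the authors' deposited table. The total was 15276 in Psat1iKO and 15532 in Ctrl.

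In 7 of the 9 regulators with several rows, the leading row and the sum of the other rows lay on opposite sides of 0. The same held for 65.7% of 6613 genes with more than 1 row and a summed mean of at least 100. Of the 10 leading rows, Mbnl3.1 alone was called, against 0.338% of all leading rows (0.223% when p is adjusted over leading rows), and Mbnl3.1 and Celf1.3 had an unadjusted p under 0.05, against 4.09% of all leading rows. The 95% interval of the leading row lay inside a 2-fold change for 9 of the 10 genes, with Mbnl2 as the exception, and inside 1.5-fold for 7.

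Precision differed widely between rows of like abundance. An SE above 1 was found in 22 of the 49 rows (44.9%), against 38.9% of all rows. It was found in 6 of the 30 rows with a mean of at least 100, against 8.71% of all rows of that mean. Mbnl3.10, with an SE of 3.23, and Mbnl1.17 were less precise than 99.8% and 99.5% of rows within 2-fold of their means. For Celf1.5 and Qk.5 these shares were 98.9% and 98.8%. Among rows of higher mean, Rbfox2.2, with a mean of 1101 and an SE of 0.791, stood at 98.6%. Celf1.1, with a mean of 844 and an SE of 0.658, stood at 96.7%. At the other end were Celf2.10, with 8.56% of such rows having a smaller SE, Qk with 9.01%, Ptbp2.2 with 13.0% and Mbnl3.1 with 15.8%.

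**Figure D4:**
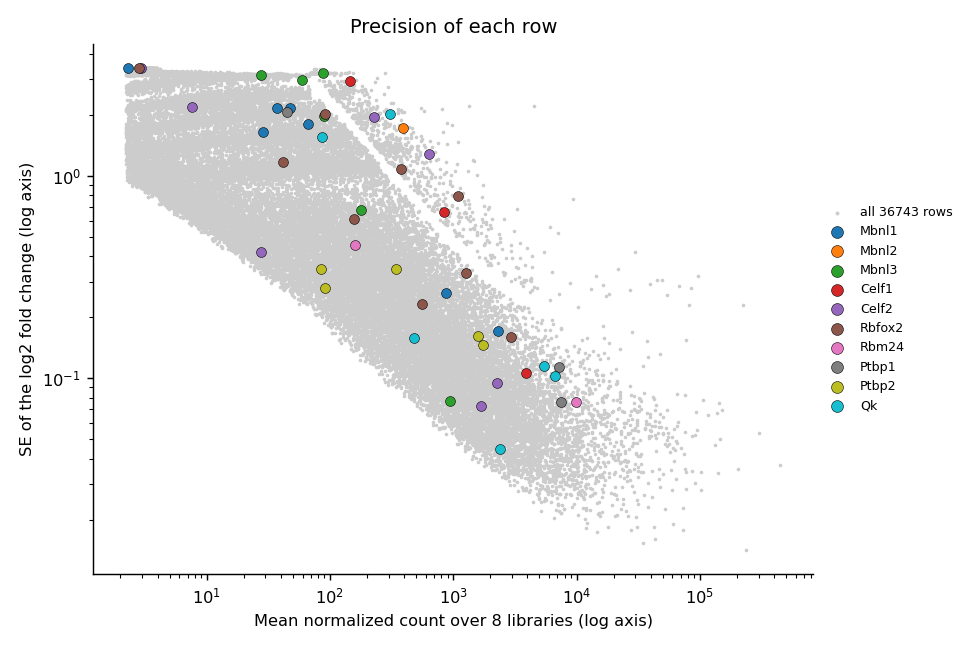
The SE of the log2 fold change against the mean normalized count (both log axes), for all rows of the table (grey) and for the rows of the 10 regulators (coloured by gene). Mbnl3.1, at 935 counts and an SE of 0.0769, lies in the lower part of the cloud, and Mbnl2.1, at 393 and 1.73, lies in a thin band of rows set apart above it.

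Other splicing regulators showed no called row. Of 29 listed, 23 had rows, among them Ptbp3, the PTB paralogue of blood cells, the PTB partners Raver1 and Matr3, the cardiac titin splicing factor Rbm20 and the helicases Ddx5 and Ddx17. Of their 68 rows, 0 were called by DESeq2 in the authors' deposited table, against 0.656% of all rows, so a count of 0 is near the background. An unadjusted p under 0.05 was found in 6 of the 68 rows, 3 in each direction (8.82%, against 6.04% of all rows). The leading rows had a median log2 fold change of -0.02, against -0.01 for all leading rows. The 4 of highest mean were Ddx5 at -0.01 ± 0.0376, Khdrbs1 at -0.08 ± 0.0433, Matr3 at -0.03 ± 0.0422 and Ptbp3.1 at 0.09 ± 0.116 in the authors' deposited table. Celf3, Celf6, Esrp1, Khdrbs2, Nova1 and the neuronal Rbfox3 had no row.

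Genes whose exons MBNL proteins are known to control in muscle were also without a call at the level of rows. All 24 listed genes had rows, 114 in all, of which 0 were called by DESeq2 in the authors' deposited table and 9 had an unadjusted p under 0.05, 2 higher and 7 lower. These shares, none called and 7.89% at an unadjusted p, stand against 0.656% and 6.04% of all rows, so a count of 0 calls in 114 rows is near the background. Their leading rows had a median log2 fold change of -0.04. Titin (Ttn.1) stood at 0.02 ± 0.255, the membrane-bending protein Bin1 (Bin1.16) at -0.05 ± 0.0885, the kinase Map4k4 (Map4k4.5) at -0.01 ± 0.102 and the actin capping subunit Capzb (Capzb.2) at -0.05 ± 0.0426 in the authors' deposited table.

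Among 20 genes known as targets of the RBFOX, PTB, CELF, QK and RBM24 proteins, 1 of 109 rows was called, a share of 0.917% near the 0.656% of all rows. It was Tpm1.11, a row of alpha-tropomyosin with 1.07% of that gene's mean count. It had 252 fitted counts in Psat1iKO and 466 in Ctrl, and the authors' deposited table lists its log2 fold change as -0.88 ± 0.164 and its DESeq2 adjusted p as 4.9e-05. The leading row Tpm1.9 stood at -0.05 ± 0.0546 in the authors' deposited table, and the total of the 14 Tpm1 rows changed by -0.04 on the log2 scale. In all, 13 rows had an unadjusted p under 0.05, 7 higher and 6 lower (11.9%, against 6.04% of all rows), and the median over leading rows was -0.03. The 7 higher rows include Mef2a.1 and Mef2a.2, which have an identical mean of 28.5, fold change and SE, so the 13 rows are not all separate measurements. The others of highest mean were Pkm.1 at 0.02 ± 0.0479, Itga7 at -0.02 ± 0.0535 and Naca.2 at -0.02 ± 0.0420 in the authors' deposited table.

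**Figure D5:**
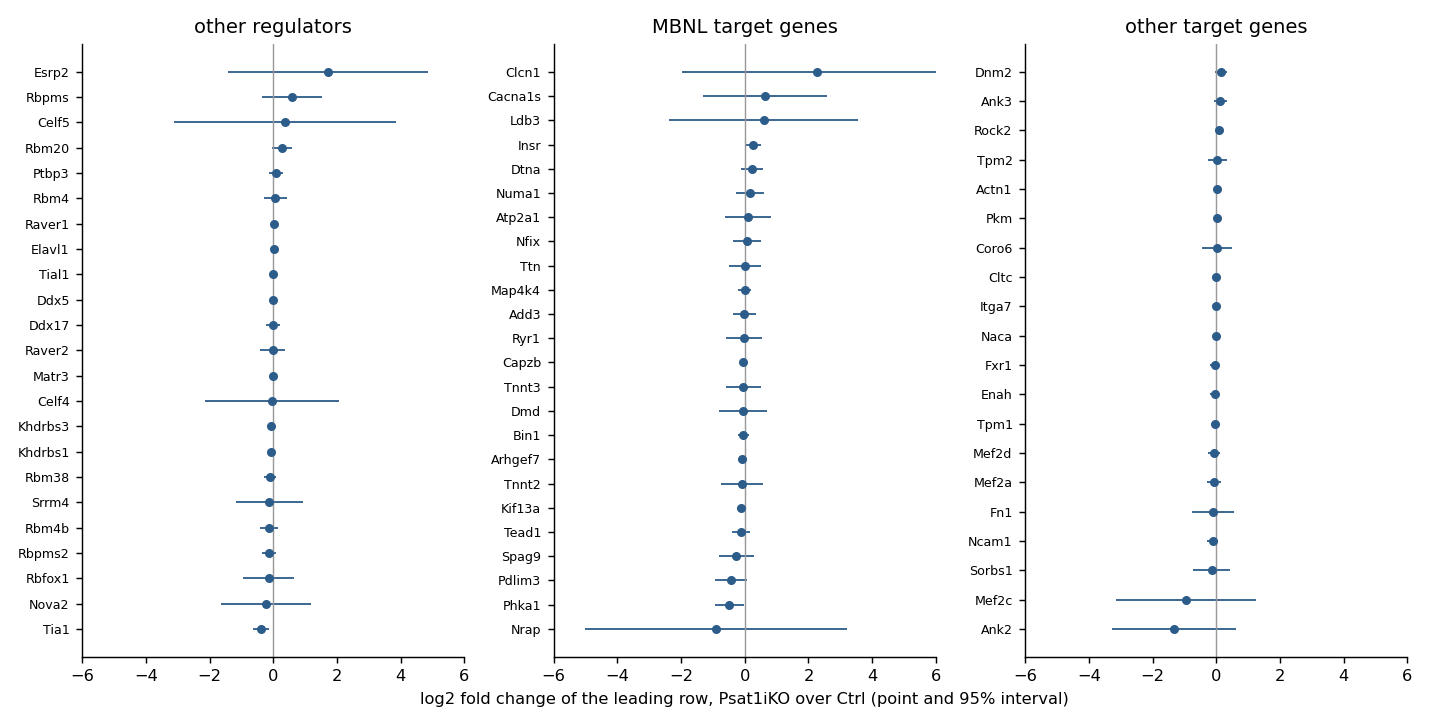
The log2 fold change of Psat1iKO over Ctrl with its 95% interval for the leading row of each listed gene: other regulators, MBNL target genes and other target genes. Most points lie close to 0, the interval of Clcn1 runs past the right edge, and none of these leading rows was called.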

How the data were processed

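Per the submitters' processing notes, reads were handled by the authors with HISAT2 2.2.1, against mm10, and DESeq2 (4.2.0 in those notes). The read counter, annotation, filters and strand setting are not stated there, so reads of antisense genes cannot be told apart. The input was 250 ng of RNA, prepared with NEBNext Ultra II reagents, per the labels' protocols. Each row of the authors' deposited table holds a mean of DESeq2-normalized counts over 8 libraries (a signal), a log2 fold change with its SE, a Wald statistic (a score), a p-value and its adjusted p. The log2 fold changes, deposited as Ctrl over Psat1iKO, were turned to Psat1iKO over Ctrl. All 26 and 46 genes with a called row in the authors' lists of genes higher and lower in Psat1iKO had one in that direction.

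The mean of each group was recovered from the mean over all libraries and the fold change, assuming comparable libraries, and summed over rows. Benjamini-Hochberg adjustment and the rebuilding were tested on simulated data (Python 3.11.15, numpy 2.4.6, pandas 2.3.3, scipy 1.17.1). A row is called at an adjusted p under 0.05. The 95% intervals are normal intervals from the SE. Depth per library is unknown. The 10 genes and the 3 lists were chosen with earlier results of these data known. Rows named are every row of the 10 genes, and from each list each called row and the 4 leading rows of highest mean. Mef2a.1 and Mef2a.2 are named for their identical values. The 7 other genes with calls in both directions were chosen after their values were seen. Alternatives were other adjustments, filters on the mean, stricter thresholds and other sums of rows.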

Additional observations from a re-analysis of the deposited data

How the results depend on the processing

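The calls of Mbnl3.1 and Mbnl3.3 held at an adjusted p under 0.01 and when means under 10 were dropped. The count of member rows called was 1 over leading rows alone, 1 when means under 100 were dropped and 1 with a 2-fold change required. The first 2 settings leave Mbnl3.3 out by construction, and the last leaves out Mbnl3.1. Among the 10 leading rows, Mbnl3.1 alone was called under each of these adjustments, filters and the stricter threshold. Over all rows, 241 calls became 37 over leading rows alone, 85 without means under 100 and 145 at an adjusted p under 0.01, where fewer rows were tested in the first 2 cases. The 1 listed row called, Tpm1.11, is no leading row and changed less than 2-fold, so 0 were called under those 2 settings, with 3 leading rows and 19 rows of 2-fold change at an unadjusted p under 0.05. The median change of the summed rows was 0.00 over the 10 genes, 0.06 with the leading row alone and -0.10 without it. For Mbnl3 the change of the total was 0.04, 0.56 with the leading row alone and -1.08 without it. Weighting the rows of Mbnl3 by inverse variance gave 0.52, since Mbnl3.1, with its SE of 0.0769, counts most there. The level total of Mbnl3 thus depends on imprecise rows being summed at full size. Weighting all rows by inverse variance put uncalled changes on the other side of 0 for Mbnl1 (-0.07, against 0.30 for the leading row), Celf2 (0.11, against -0.03), Rbfox2 (0.15, against -0.11) and Qk (0.05, against -0.04). For single genes, 54 values stayed on their side of the threshold or, for changes and sums, within 1 SE of the gene's leading row, used as a yardstick because the sums of several rows have no SE, and 15 moved. No paired analysis was possible because values per library were not analysed here. For the same reason, leaving out replicates, edgeR and another normalization were not run, and no result can be tied to a single library.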

Other observations

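The rows Celf2.8, Rbfox2.9 and Mbnl1.17, with means of 2.91, 2.82 and 2.29 normalized counts and SEs of 3.40 each, have a mean, fold change and SE identical to all deposited digits with 9, 5 and 7 rows of other genes. Over all genes, 551 rows share their 3 values with another row.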
